A study of Mus musculus with 8 samples.

Results

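Neutrophil granule and alarmin genes were examined in macrophages sorted from mammary tumours. The 10 genes named for this purpose were S100a8, S100a9, Csf3r, Lcn2, Camp, Ngp, Ltf, Mmp8, Retnlg and Trem1, and they were found as probe sets annotated with exactly 1 of these symbols. Of the 10, 9 had at least 1 probe set (10 probe sets in all, Trem1 having 2), out of 18193 genes and 45101 probe sets on the array. The signal of Retnlg, a resistin-like gene of neutrophils, was not analysed here. Where a gene had several probe sets, the brightest on average over the 8 arrays stood for it. Camp and Ngp were dim, which means that their mean signal lay under the 40th percentile of all gene means (5.998 on the log2 scale), and 7 of the 9 genes entered the test.

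Total RNA of F4/80+ tumour-associated macrophages, sorted by flow cytometry from the mammary tumours of FVB mice aged 80 days, was hybridised to Affymetrix arrays. The E2f3-deleted group (4 arrays lettered A, E, F and H) had the genotype PyMT;Lys Cre;E2F3f/f, in which Cre, expressed from the lysozyme locus, recombines E2f3 alleles with flanking target sites. The control group (4 arrays lettered B, C, D and G) had the genotype PyMT;E2F3f/f, with the same flanked alleles and no Cre. The PyMT transgene, an oncogene of viral origin that causes mammary tumours, was present in all mice. Cre and the deletion cannot be told apart, since no group had Cre without it, and the labels do not say whether each array was a separate animal, so that the p-values rest on the spread between samples, which may be technical. E2f3 itself had a log2 signal of 7.65, 7.54, 7.53 and 7.79 in E2f3-deleted arrays A, E, F and H, against 7.66, 7.63, 7.83 and 7.58 in control arrays B, C, D and G, for its brighter probe set. The groups overlapped, and the deleted stretch of the gene is not named in the labels, so this probe set does not check the labels. The letters of the scan files differ from those of the titles, and grouping by them would exchange E2f3-deleted array F and control array B. E2f3-deleted array H stood apart from the other arrays, with a mean correlation of 0.983 with its own group, where arrays A, E and F had 0.990 to 0.991 and control arrays 0.994 to 0.995. Precision is limited throughout by how few arrays there are.

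Neutrophils are short-lived granulocytes that carry antimicrobial proteins in granules laid down in sequence as the cells mature in the bone marrow. Primary granules hold myeloperoxidase and serine proteases. Secondary and tertiary granules hold lactoferrin, lipocalin 2, the cathelicidin and metalloproteinases, and the cytoplasm is rich in S100A8 and S100A9, calcium-binding alarmins that form a heterodimer and are released on damage. Several of these genes are not confined to neutrophils, since monocytes and macrophages can express S100a8, S100a9, Csf3r and Trem1, and mammary epithelium can express Lcn2 and Ltf. F4/80 is a surface protein of macrophages that neutrophils generally lack, and lysozyme-driven Cre is active in neutrophils as well as in macrophages.

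No gene of the set differed between E2f3-deleted and control macrophages beyond the spread between arrays. Of the 7 tested genes, 4 had a difference above 0 (S100a8, S100a9, Lcn2 and Ltf) and 3 below 0 (Csf3r, Mmp8 and Trem1), with a median of 0.17 log2 units, beside a median of −0.03 over all 10916 genes tested, of which 41.3% were above 0 and 58.7% below. An adjusted p under 0.05 was reached by 0 of the 7 and by 0 of all genes (0%, limma with Benjamini-Hochberg adjustment, smallest adjusted p 0.153 over all genes). At an unadjusted p under 0.05 there were 0 of the 7, against 14.2% of all genes (7.27% were higher, 6.90% lower), and in 0 of the 7 were the 4 arrays of each group without overlap, against 8.48% of all genes (4.26% higher and 4.22% lower). The spread between arrays of the same group was wide for most of these genes. The pooled standard deviation within groups was 1.03 for Ltf, 0.90 for Mmp8, 0.60 for S100a8, 0.59 for S100a9, 0.37 for Trem1, 0.33 for Lcn2 and 0.19 for Csf3r on the log2 scale, against a median of 0.126 over all genes tested. For Ltf this exceeded 99.0% of tested genes, and for Csf3r 73.9%.

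**Figure D1:**
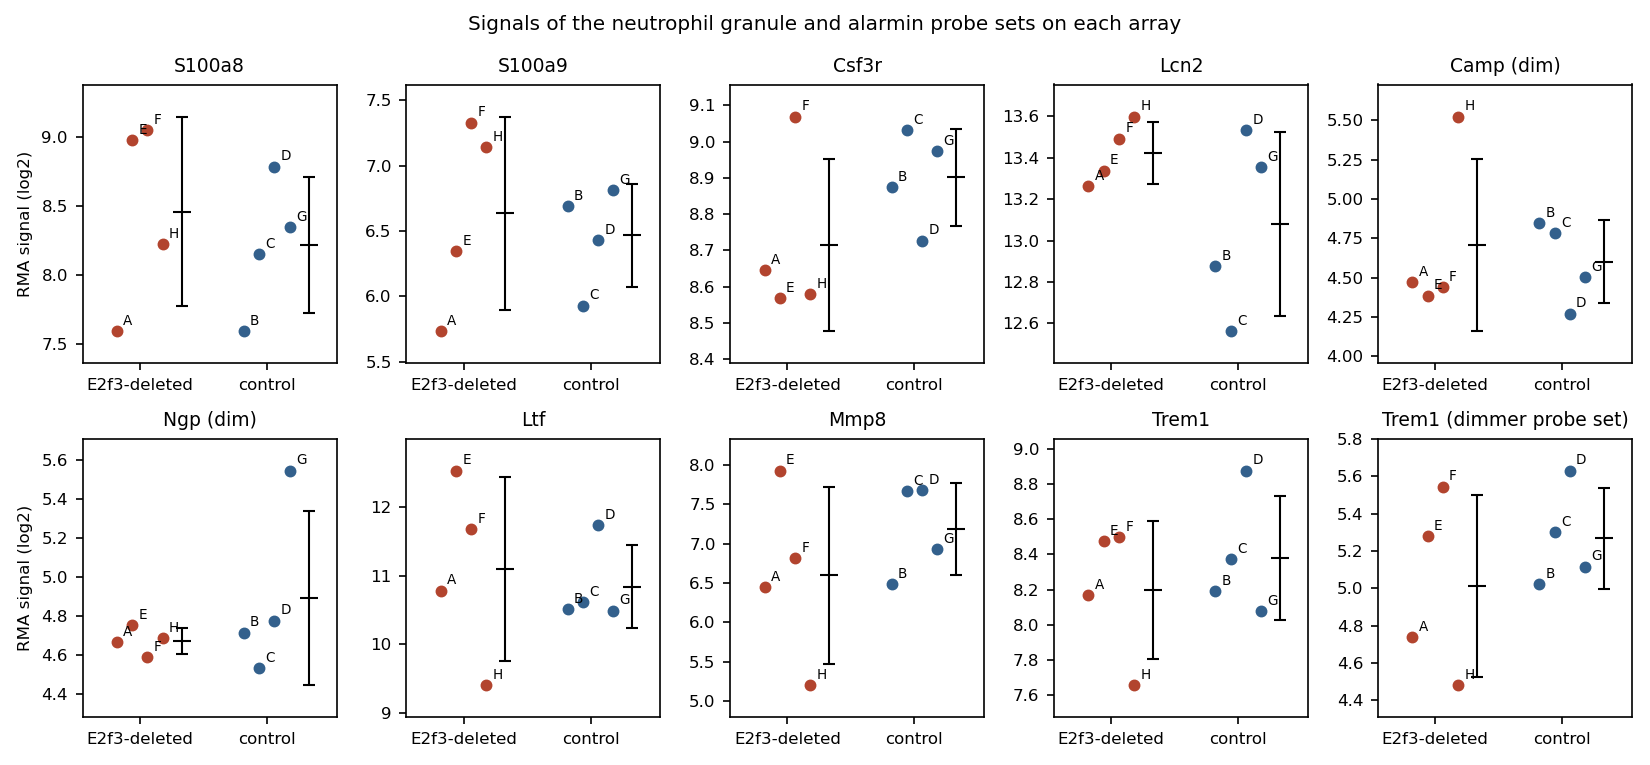
RMA signal on the log2 scale (vertical axes, which differ in range) of the 10 probe sets on each array, with E2f3-deleted arrays on the left of each panel and control arrays on the right. Points are arrays labelled by letter, and bars are the mean ± SD of 4 arrays. The groups overlapped in every panel, and array H was the lowest of the 8 arrays for Ltf, Mmp8 and both probe sets of Trem1.

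**Figure D2:**
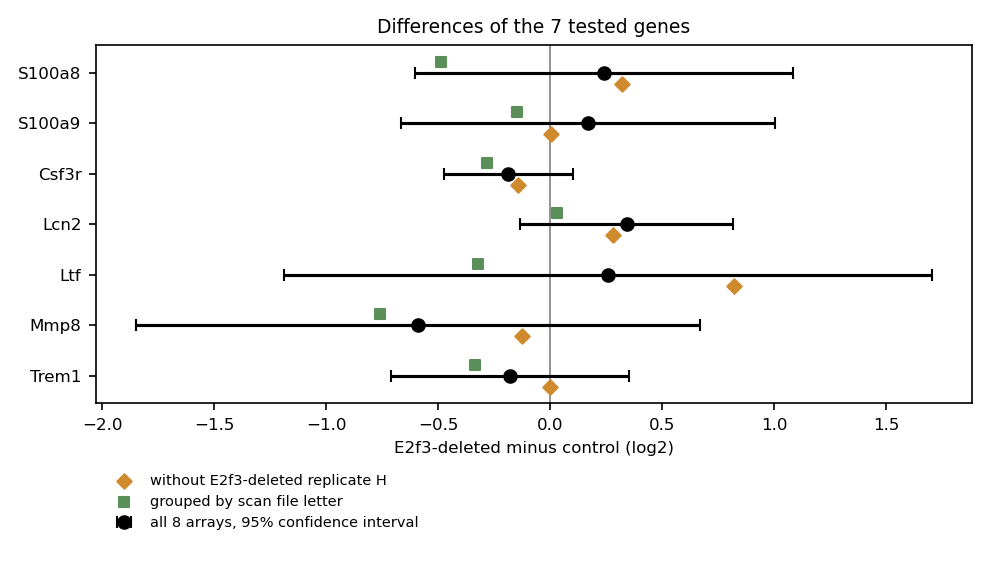
Log2 difference of the 7 tested genes (E2f3-deleted minus control) with its 95% confidence interval (circles and bars, all 8 arrays), without E2f3-deleted array H (diamonds) and under the grouping from scan file letters (squares). All 7 intervals include 0. Without array H, Mmp8 moved to −0.12 and Ltf to 0.82.

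The sorted cells were checked against markers of neutrophils and macrophages. Of 10 other genes listed as neutrophil markers, 8 had a probe set, and 6 of these were dim. The dim ones were Mpo (myeloperoxidase), Elane (neutrophil elastase), Ctsg (cathepsin G), Cd177, Olfm4 and Cxcr2, the receptor by which neutrophils follow CXC chemokines. The 2 that were not dim were Prtn3, a serine protease of primary granules, and Il1r2, the decoy receptor of interleukin 1. The summed linear signal of the 8 ranged from 460.7 to 688.5 in E2f3-deleted arrays and from 467.8 to 719.2 in controls. By contrast 8 of 8 macrophage markers passed the filter. Among them was Adgre1, which encodes F4/80, with mean log2 signals of 12.69 in E2f3-deleted and 12.88 in control macrophages. Of the 8, 3 (Mertk, Cd68 and Adgre1) were lower in the E2f3-deleted group at an unadjusted p under 0.05 (limma), beside 6.90% of all genes. In the same 3 the groups did not overlap, beside 4.22% of all genes in that direction, and 0 of the 8 passed after adjustment. Macrophage markers were thus present as labelled, but so were those of other cells. The filter was also passed by 11 of 11 epithelial, 8 of 8 fibroblast, 7 of 9 endothelial and 6 of 8 mast cell markers. All 7 endothelial, 6 mast cell and 8 fibroblast markers had differences above 0, as did 9 of 11 epithelial markers, beside 41.3% of all genes. At an unadjusted p under 0.05 (limma) there were 7, 2, 1 and 1 of them in that direction, beside 7.27% of all genes, with 0 past adjustment. These values do not show how pure the sort was. In such bulk samples fewer cells of a type and less RNA per cell cannot be told apart.

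The alarmins S100a8 and S100a9 encode the subunits of calprotectin, which binds Toll-like receptor 4 and the receptor AGER. S100a8 had log2 signals of 7.60, 8.98, 9.05 and 8.22 in E2f3-deleted arrays A, E, F and H, against 7.60, 8.15, 8.79 and 8.35 in control arrays B, C, D and G. Arrays E and F were the highest of the 8 arrays and array A was level with the lowest control, so the groups overlapped over the whole control range. The means were 8.46 ± 0.69 and 8.22 ± 0.49 (SD, n = 4 each), which differ by 0.24 (SE 0.37, 95% interval −0.60 to 1.08; limma, adjusted p = 0.777). S100a9 had log2 signals of 5.73, 6.34, 7.33 and 7.14 in E2f3-deleted arrays A, E, F and H, against 6.69, 5.93, 6.43 and 6.81 in control arrays B, C, D and G. The 4 controls lay inside the range of the E2f3-deleted arrays, whose arrays F and H were highest and array A lowest. Array A and control array C lay under 5.998, the cutoff below which a gene mean counted as dim. The difference was 0.17 (SE 0.36, 95% interval −0.66 to 1.00; limma, adjusted p = 0.845). The 2 genes did not follow each other closely over the arrays. Their Pearson r was 0.42 and Spearman's rho 0.43 over 8 arrays, r was 0.40 for deviations from the group means, and it was 0.15 when array A, low for both genes, was left out. Array E was among the highest arrays for S100a8 but below the control mean for S100a9.

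Both genes lie on chromosome 3, and the 250 bases before each annotated start are shown because these 2 genes encode 1 protein complex yet differed in their pattern over the arrays. The sequences are from RefSeq, build GRCm38.p6, S100a8 at chr3:90668821-90669070 on the plus strand and S100a9 at chr3:90695722-90695971 on the minus strand, and capitals mark matches to the motifs searched.
S100a8: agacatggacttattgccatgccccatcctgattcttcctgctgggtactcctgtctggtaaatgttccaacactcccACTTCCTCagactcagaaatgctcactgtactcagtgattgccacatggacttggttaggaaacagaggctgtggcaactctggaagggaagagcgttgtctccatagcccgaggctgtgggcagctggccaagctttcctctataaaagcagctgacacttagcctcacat
S100a9: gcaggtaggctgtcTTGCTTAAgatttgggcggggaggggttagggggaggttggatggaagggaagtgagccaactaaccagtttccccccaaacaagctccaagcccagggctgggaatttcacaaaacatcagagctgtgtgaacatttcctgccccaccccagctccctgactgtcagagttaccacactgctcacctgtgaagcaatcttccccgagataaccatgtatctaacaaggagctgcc
The windows of the 10 genes were searched on both strands for TTGCNNAA, bound by the C/EBP factors of granulocyte and macrophage development, for GAGGAANT, bound by PU.1, for the NF-kB motif, GGGA and CC with any 4 bases between them, and for the E2F motifs TTTCCCGC, TTTCGCGC, TTTGCCGC and TTTGGCGC. In S100a8 the capitals are a match to the PU.1 motif, and in S100a9 a match to the C/EBP motif. Matches of different motifs overlapped in 0 of the 10 windows. The C/EBP motif was found in 6 of the 10 windows (S100a9, Lcn2, Ngp, Ltf, Mmp8 and Retnlg), against 9.56% of 32851 windows of the same length. The PU.1 motif was found in 2 (S100a8 and Mmp8), against 5.97%, the NF-kB motif in 1 (Csf3r), against 17.6%, and the E2F motifs in 0, against 1.86%. A match describes letters in this window and not a bound site.

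Receptors and partners of these proteins were tested from a list. Of 10 such genes, 8 passed the filter on signal, 3 had differences above 0 and 5 below, and 1 was past an unadjusted p of 0.05, none after adjustment (limma). That count is near the 14.2% of all genes. The gene was Lrp1, an endocytic receptor that takes up lactoferrin, with log2 signals of 11.38, 11.41, 11.37 and 11.73 in E2f3-deleted arrays A, E, F and H, against 11.81, 11.80, 11.79 and 11.71 in control arrays B, C, D and G (difference −0.30, SE 0.088, adjusted p = 0.237). Arrays A, E and F lay below every control and array H did not. Tlr4, the receptor of calprotectin, had a difference of −0.07, its co-receptor genes Ly96 and Cd14 of −0.14 and 0.01, Bsg, which binds S100A9, of −0.09, and Cd36, a scavenger receptor, of 0.03. Ager was dim. Among 10 other S100 genes with a probe set, 7 passed the filter, 5 of them above 0 and 2 below. S100a16 was at 10.22, 9.71, 10.22 and 10.23 in E2f3-deleted arrays A, E, F and H, against 8.74, 8.62, 9.42 and 8.99 in control arrays B, C, D and G. The 4 E2f3-deleted arrays lay above the 4 controls, as in 4.26% of all genes, and the difference of 1.15 (SE 0.192) was not past the threshold (limma, adjusted p = 0.158). The median of endothelial markers was 1.82, 1.01, 2.01 and 0.04 from the control mean on E2f3-deleted arrays A, E, F and H, against −0.43, 0.12, 0.44 and 0.03 on control arrays B, C, D and G, and its part in this difference was not tested. S100a6 and S100a13 had differences of 0.20 and 0.06.

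Csf3r encodes the receptor for granulocyte colony-stimulating factor, which drives neutrophil production and signals through JAK kinases and STAT3. Its log2 signals were 8.65, 8.57, 9.07 and 8.58 in E2f3-deleted arrays A, E, F and H, against 8.87, 9.03, 8.73 and 8.97 in control arrays B, C, D and G. Arrays A, E and H lay below every control, and array F lay above every control. The difference was −0.19 (SE 0.12, 95% interval −0.47 to 0.10; limma, adjusted p = 0.509). Without array F the difference was −0.30, which did not pass the threshold either (limma, adjusted p = 0.322). Csf3, the gene of the ligand, was dim, as was Gfi1, a repressor needed for neutrophil maturation. Of the regulators and signalling genes that passed the filter, 4 of 9 had differences above 0 and 5 below, with 0 at an unadjusted p under 0.05 and a median of −0.01. Stat3 had a difference of −0.11, Socs3, an inhibitor of this pathway, of −0.01, Jak1 and Jak2 of 0.03 and 0.05, and Spi1, which encodes PU.1, of −0.28 (SE 0.164). Cebpb and Cebpd, C/EBP factors of myeloid cells, had differences of −0.19 and 0.11.

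Lcn2 and Ltf encode iron-related proteins of secondary granules. Lipocalin 2 binds bacterial siderophores and lactoferrin binds iron. Lcn2 had log2 signals of 13.26, 13.34, 13.49 and 13.60 in E2f3-deleted arrays A, E, F and H, against 12.88, 12.56, 13.53 and 13.35 in control arrays B, C, D and G. The E2f3-deleted arrays were close together and lay above control arrays B and C, but control array D exceeded 3 of them. The means were 13.42 ± 0.15 and 13.08 ± 0.44 (SD, n = 4 each), which differ by 0.34 (SE 0.21, 95% interval −0.13 to 0.82; limma, adjusted p = 0.475). Lcn2 was the gene of the set with the smallest p, and its difference was 0.17 without control array C and 0.49 without control array D. Slc22a17, which encodes a receptor of lipocalin 2, had a difference of 0.19 (SE 0.145, adjusted p = 0.554), and Lrp2, another, was dim.

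Ltf had the widest range of the set, 8.63-fold between the lowest and the highest array. It was at 10.78, 12.52, 11.67 and 9.41 in E2f3-deleted arrays A, E, F and H, against 10.51, 10.61, 11.73 and 10.49 in control arrays B, C, D and G on the log2 scale. The highest and the lowest array were both E2f3-deleted, arrays E and H, and among controls array D stood above 3 closely similar arrays. The difference was 0.26 (SE 0.63, 95% interval −1.19 to 1.71; limma, adjusted p = 0.865). Without array H it was 0.82 and without array E −0.22, so its direction depended on 1 array.

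Mmp8 encodes neutrophil collagenase, which cleaves fibrillar collagens. Its log2 signals were 6.45, 7.92, 6.82 and 5.20 in E2f3-deleted arrays A, E, F and H, against 6.48, 7.66, 7.68 and 6.93 in control arrays B, C, D and G. Array E was the highest array and array H the lowest, and array A lay just below the lowest control. The signal on array H lay under 5.998, the cutoff below which a gene mean counted as dim. The difference of −0.59 was the farthest from 0 among the 7 genes, a 1.51-fold lower level in E2f3-deleted macrophages (SE 0.55, 95% interval −1.85 to 0.67; limma, adjusted p = 0.633). Without array H it was −0.12. Of 3 related metalloproteinase genes, Mmp1a was dim, Mmp13 had a difference of −0.02 and Mmp3, stromelysin, of 1.38 (SE 0.945, adjusted p = 0.518), with array H at 10.90 and the other arrays from 5.53 to 7.94.

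Trem1 encodes a receptor that amplifies inflammatory signals in neutrophils and monocytes through the adaptor TYROBP. Its brighter probe set had log2 signals of 8.17, 8.48, 8.50 and 7.66 in E2f3-deleted arrays A, E, F and H, against 8.19, 8.38, 8.88 and 8.08 in control arrays B, C, D and G. Array H was the lowest array, control array D the highest, and the other 6 lay close together. The difference was −0.18 (SE 0.23, 95% interval −0.71 to 0.35; limma, adjusted p = 0.736), and 0.0017 without array H. The dimmer probe set, under the filter, had the same lowest and highest arrays and a difference of −0.26 (limma over all probe sets, SE 0.24, adjusted p = 0.714). Tyrobp had a difference of −0.08 and Pglyrp1, which encodes a ligand of TREM1, of −0.07. Of the 6 related genes of the Trem family, 6 had differences below 0, beside 58.7% of all genes tested, and 1 was past an unadjusted p of 0.05, beside 14.2% of all genes. This was Trem2, a lipid receptor of macrophages, at 10.48, 10.31, 10.36 and 10.10 in E2f3-deleted arrays A, E, F and H, against 10.48, 10.82, 10.52 and 10.85 in control arrays B, C, D and G (difference −0.35, SE 0.116, adjusted p = 0.268). The groups met at arrays A and B. Trem3 and Treml1 had differences of −0.39 and −0.21.

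Camp, the mouse cathelicidin, and Ngp, a granule protein of the same family, were dim in both groups. Camp was at 4.47, 4.39, 4.44 and 5.52 in E2f3-deleted arrays A, E, F and H, against 4.85, 4.78, 4.27 and 4.50 in control arrays B, C, D and G, so that array H alone stood above the rest. Ngp was at 4.66, 4.75, 4.59 and 4.69 in E2f3-deleted arrays A, E, F and H, against 4.71, 4.53, 4.77 and 5.55 in control arrays B, C, D and G, so that array G alone stood above the rest. In the fit over all probe sets the differences were 0.10 and −0.22 (limma, adjusted p = 0.901 and 0.705). Fpr2, a formyl peptide receptor that binds the cathelicidin, had a difference of −0.24 (SE 0.361). None of the arrays high for Camp or Ngp was also the highest for Ltf or Mmp8, which share their granules.

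**Figure D3:**
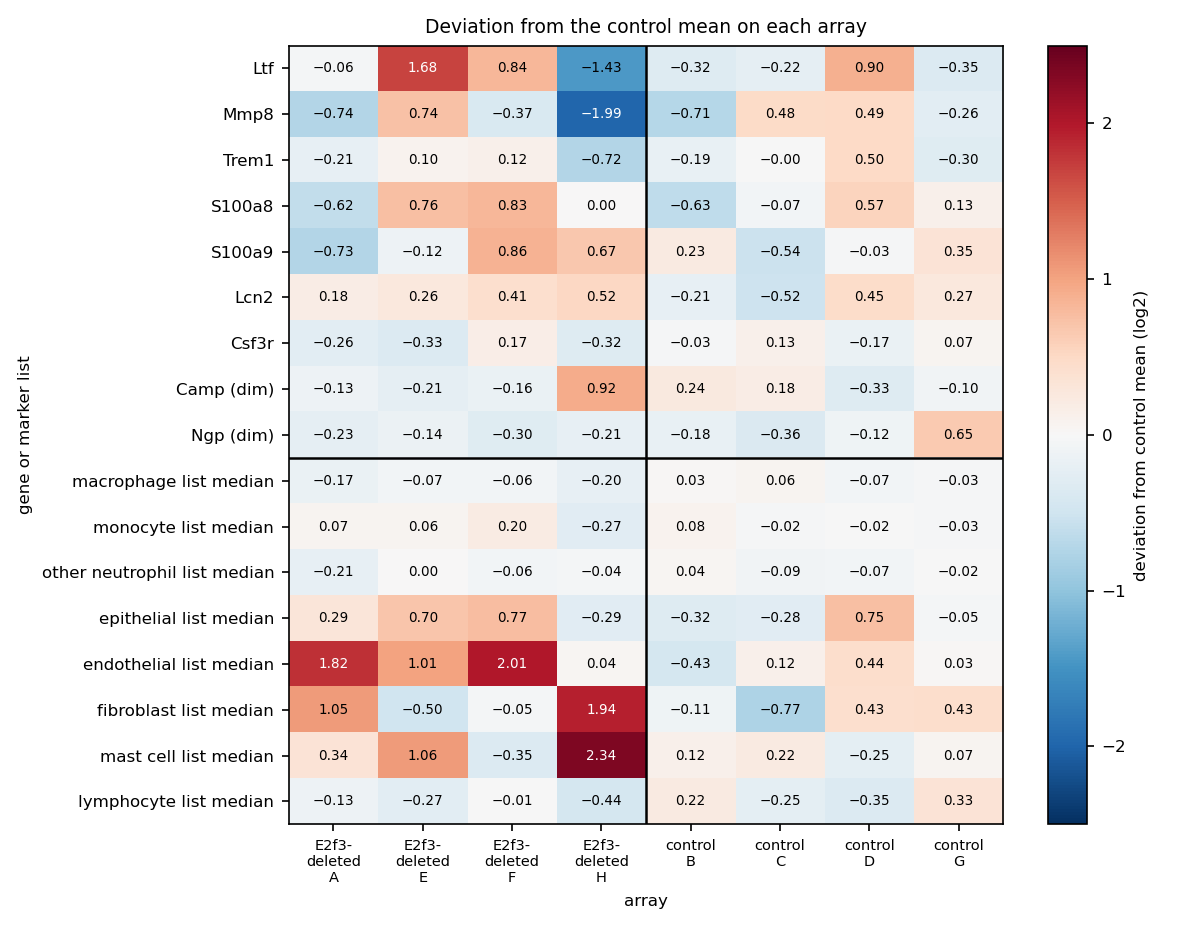
Deviation from the control mean on the log2 scale (colour and printed value) on each array (columns, E2f3-deleted left of the line and control right of it), for the 9 genes (rows above the line) and for the median of each marker list (rows below it). Ltf, Mmp8 and Trem1 were low together on array H, where the fibroblast and mast cell medians were highest at 1.94 and 2.34. On arrays E, F and D the epithelial median was 0.70, 0.77 and 0.75.

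Over the 8 arrays the 3 pairs with the highest r were those among Ltf, Mmp8 and Trem1. Pearson's r was 0.83 for Ltf and Trem1, 0.83 for Mmp8 and Trem1 and 0.79 for Ltf and Mmp8, with rho of 0.86, 0.69 and 0.69. For deviations from the group means r was 0.91, 0.82 and 0.91. Much of this rested on array H, without which r was 0.69, 0.64 and 0.60, and without arrays E and H, the arrays farthest from the median of Ltf or Mmp8, r was 0.86, 0.68 and 0.33. Of the 21 pairs of tested genes, 14 had r above 0 and 3 reached 0.7, with a median of 0.22 and a range from −0.44 to 0.83. S100a8 had r of 0.66 with Ltf, 0.52 with Trem1 and 0.46 with Mmp8. Without array H these were 0.81, 0.67 and 0.63, and S100a8 with Ltf was then the only one of the 21 pairs to reach 0.7. Lcn2 had r of 0.14 with Ltf over all arrays and 0.57 without array H, on which Lcn2 was highest and Ltf lowest. Csf3r had r between −0.44 and 0.22 with the other 6 genes. These are descriptions over 8 arrays, with no test.

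The upstream 250 bases of Ltf, Mmp8 and Trem1, the 3 genes with the highest r among them over all 8 arrays, are shown for comparison, from RefSeq, build GRCm38.p6, all on the plus strand. They are Ltf at chr9:111019042-111019291, Mmp8 at chr9:7558179-7558428 and Trem1 at chr17:48232489-48232738, with capitals as above.
Ltf: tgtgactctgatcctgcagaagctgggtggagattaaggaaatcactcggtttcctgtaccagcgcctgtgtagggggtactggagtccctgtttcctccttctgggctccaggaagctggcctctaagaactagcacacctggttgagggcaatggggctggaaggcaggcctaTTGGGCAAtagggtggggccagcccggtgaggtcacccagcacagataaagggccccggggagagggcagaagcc
Mmp8: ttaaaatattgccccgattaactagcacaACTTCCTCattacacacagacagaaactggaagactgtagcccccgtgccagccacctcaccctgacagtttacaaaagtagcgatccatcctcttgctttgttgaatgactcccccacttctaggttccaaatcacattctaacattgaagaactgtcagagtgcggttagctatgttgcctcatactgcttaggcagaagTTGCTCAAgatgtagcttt
Trem1: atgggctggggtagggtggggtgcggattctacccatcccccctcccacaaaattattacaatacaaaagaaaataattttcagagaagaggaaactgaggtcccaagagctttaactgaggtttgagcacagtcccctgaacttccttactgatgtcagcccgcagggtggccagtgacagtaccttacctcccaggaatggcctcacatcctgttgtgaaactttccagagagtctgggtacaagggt
Ltf held 1 match to the C/EBP motif and Mmp8 1 match each to the C/EBP and PU.1 motifs, while the Trem1 window held none of the 4 kinds searched.

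Markers of other cells moved with some of these genes. The median of 11 epithelial markers (11 of 11 above the filter, keratins, milk protein genes and epithelial transcription factors among them) was 0.29, 0.70, 0.77 and −0.29 from the control mean on E2f3-deleted arrays A, E, F and H, and −0.32, −0.28, 0.75 and −0.05 on control arrays B, C, D and G. Their summed linear signal ranged from 24672 to 34949.9 in E2f3-deleted arrays and from 23386 to 34904 in controls. Ltf had r of 0.86 with this median and rho of 0.79, and r was 0.88 for deviations from the group means, 0.87 without array H, 0.85 without array F and control array D, and at least 0.85 with any 1 array left out. Trem1 and S100a8 both had r of 0.73 with it, and 0.52 and 0.53 without array F and control array D. Mmp8 had r of 0.50, and 0.33 without array H. Lcn2 had r of 0.54 and rho of 0.36. Its r was 0.83 without array H but 0.36 without array F and control array D. The neutrophil markers outside the set had r of 0.06 with Ltf, 0.06 with Mmp8, −0.06 with Trem1, −0.04 with Lcn2, 0.23 with S100a8 and 0.55 with S100a9, the last being 0.13 without array A. As 6 of these 8 markers were dim, their median follows background signal for the most part, and an r near 0 says little about neutrophil RNA. The part of epithelial RNA in the levels of Ltf, Lcn2, Trem1 and S100a8 was not tested.

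Macrophage markers were lower on the arrays where Lcn2 was higher. The median of 8 macrophage markers was −0.17, −0.07, −0.06 and −0.20 from the control mean on E2f3-deleted arrays A, E, F and H and 0.03, 0.06, −0.07 and −0.03 on control arrays B, C, D and G, and the summed linear signal ranged from 90806 to 100522 in E2f3-deleted arrays and from 100404 to 109706 in controls. Lcn2 had r of −0.75 with this median (rho −0.69), −0.65 for deviations from the group means and −0.45 without array H and control array C, whereas Csf3r had r of 0.72 (rho 0.69), 0.61 within groups and 0.51 without the same arrays. Mmp8 had r of −0.82 with the median of 8 fibroblast markers, and −0.57 without array H. The summed linear signal of the 8 fibroblast genes ranged from 11058 to 48172 in E2f3-deleted arrays and from 8209 to 21126 in controls. The mast cell median had r of −0.68 with Csf3r (rho −0.76), and −0.65 without array H. With Trem1 it had r of −0.70, but −0.24 without array H. Its r was above 0 with S100a9 (0.16, rho −0.36) and Lcn2 (0.26, rho −0.095), but −0.50 and −0.19 without array H. The excess of 3′ over 5′ Gapdh signal, which grows as RNA degrades, was 1.87, 1.48, 1.59 and 1.73 on E2f3-deleted arrays A, E, F and H, against 1.53, 1.47, 1.39 and 1.42 on control arrays B, C, D and G. It had r of −0.69 with Mmp8 (rho −0.79), and −0.51 without arrays A and H. With S100a8 it had r of −0.48 (rho −0.29), and 0.013 without arrays A and H. For deviations from the group means r was −0.92, a value that was not recomputed without those arrays. The part of these measures in the results was not tested.

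**Figure D4:**
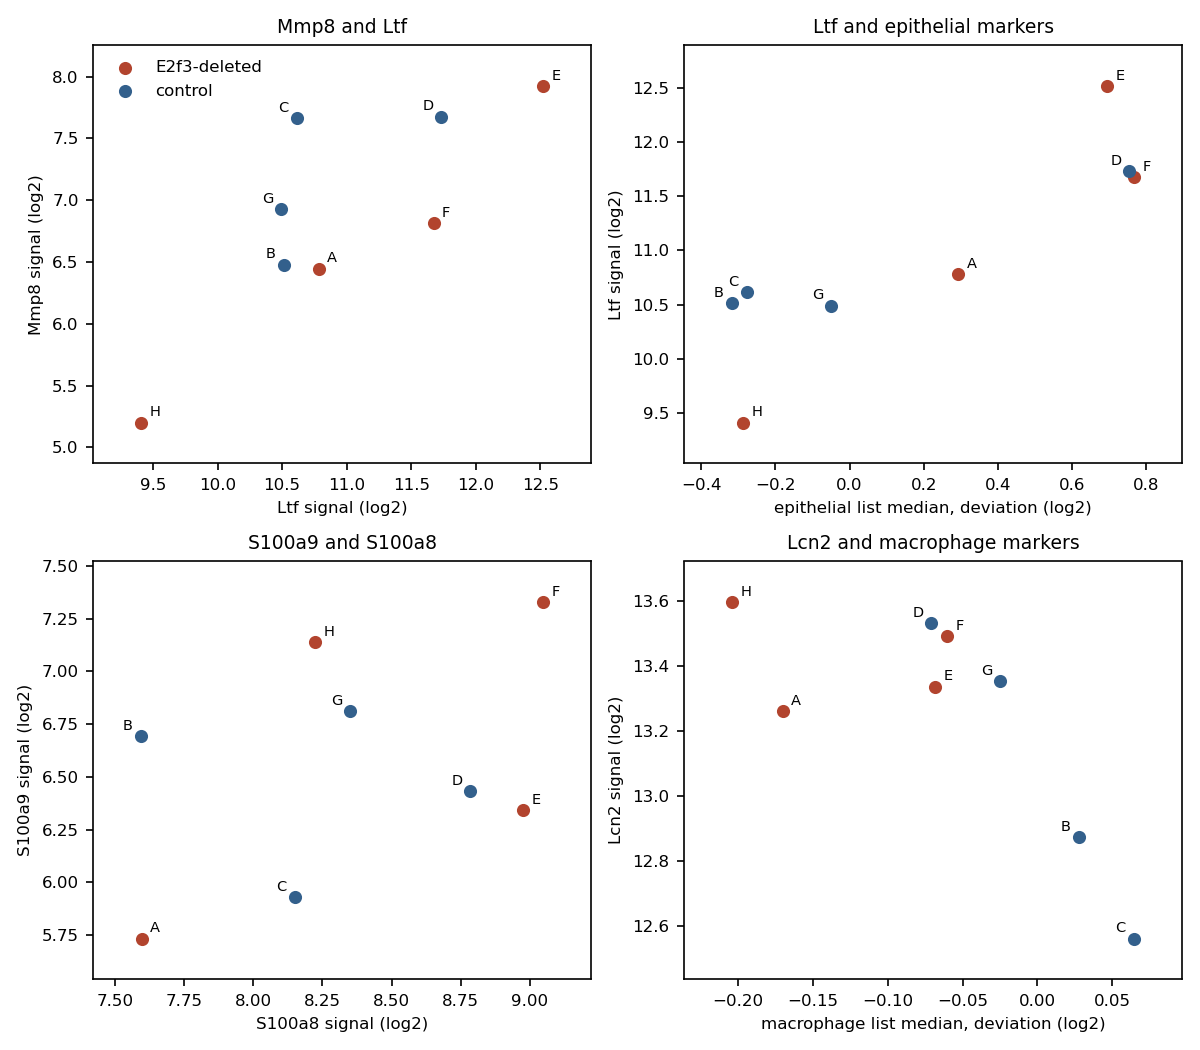
Pairs of measures over the 8 arrays, with points labelled by array (red E2f3-deleted, blue control): Mmp8 against Ltf, Ltf against the epithelial median, S100a9 against S100a8 and Lcn2 against the macrophage median, all on the log2 scale. Ltf had r of 0.86 with the epithelial median over all 8 arrays, while S100a8 and S100a9 were loosely related (r = 0.42). Among controls array D was highest in both Ltf and the epithelial median. Control array G, next in the epithelial median at −0.05, was lowest of the controls in Ltf at 10.49.

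For each tested gene the 5 genes with the highest r over the 8 arrays were named. Few reached r of 0.9, from 0.0641% of tested genes for S100a8 to 0.898% for Mmp8. Trem1 was most like Wap (r = 0.96), Piezo1, Csn1s1 (r = 0.95), Ifrd2 and Lsm7, of which Wap and Csn1s1 are milk protein genes. Ltf was most like Nmnat1 (r = 0.99), Dmkn (r = 0.98), an epidermal secreted protein gene, Zbtb17, Sem1 and Rassf7. Lcn2 was most like Slc44a3 (r = 0.98), Arhgap44, Aldh18a1, Prom1, a gene of epithelial membrane protrusions, and Slco1a5. Mmp8 was most like Slc6a7 (r = 0.99), Lsm12, Spag7, Tagln2 and Atg4d. S100a8 was most like Ndufb6 (r = 0.96), Med31, Grb7, Nme7 and D930048N14Rik, and S100a9 most like Slc25a12 (r = 0.97), Thtpa, Harbi1, Dnajb5 and 2010320M18Rik. Csf3r was most like Abhd16a (r = 0.95), Eepd1, Ift22, Patl1 and Minpp1. Each list of 5 held 0 other genes of the set.

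The rest of the neutrophil programme was equally without calls. Of 10 other secondary and tertiary granule genes, 8 passed the filter, 3 with differences above 0 and 5 below, and 0 were past an unadjusted p of 0.05 (median −0.07). Adam8, a membrane protease, had a difference of −0.85 (SE 0.424, adjusted p = 0.406), Itgam, the integrin subunit CD11b, of −0.34 (SE 0.181), and Hp, haptoglobin, of 1.38 (SE 0.945). Of 4 primary granule genes 1 passed the filter, Prtn3, with a difference of 0.30 (SE 0.345). The neutrophil surface genes that passed, 5 of 10 listed, all had differences below 0 with a median of −0.36, beside 58.7% of all genes, and 0 were past an unadjusted p of 0.05. Among them Clec4e and Clec4d, lectin receptors also found on macrophages, had differences of −0.57 (SE 0.487) and −0.51 (SE 0.464), with array H lowest at 7.08 and 9.62, and Ceacam10 had −0.36. The chemokines Cxcl1 and Cxcl2, which attract neutrophils, had differences of −0.37 and −0.28, and Cxcl3 and Cxcl5 were dim. Retnla, a resistin-like gene of alternatively activated macrophages, had a difference of −0.17 (SE 0.292).

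The NADPH oxidase genes, which give phagocytes their oxidative burst, had differences below 0 in 5 of 5 measured genes, beside 58.7% of all genes, with a median of −0.21. Rac2, a small GTPase of the complex, had a difference of −0.30 (SE 0.115, adjusted p = 0.306) and Ncf4 of −0.24 (SE 0.091, adjusted p = 0.312), the 2 of 5 at an unadjusted p under 0.05 (limma), beside 14.2% of all genes and 6.90% in that direction. Cyba had a difference of −0.21 (SE 0.092, limma, adjusted p = 0.357). Its groups all but touched, with E2f3-deleted array E at 13.1085 and control array D at 13.1089. By that margin they did not overlap, beside 4.22% of all genes tested whose groups did not overlap in that direction. These genes are expressed by macrophages as well as neutrophils. On the same arrays the macrophage markers had a median difference of −0.13, with 8 of 8 below 0, and their part in the oxidase differences was not tested.

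**Figure D5:**
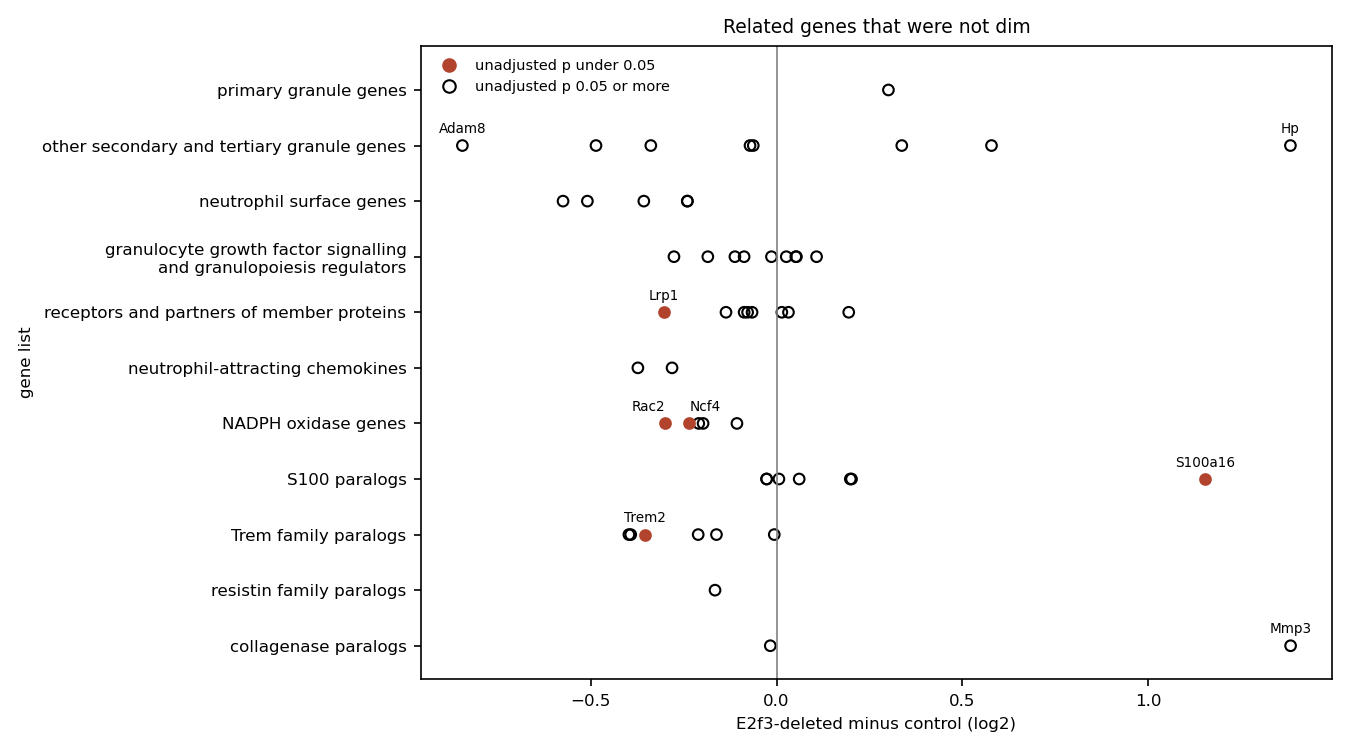
Log2 difference, E2f3-deleted minus control (horizontal axis), of each gene of 11 related lists (rows) that was not dim. Filled red points had an unadjusted p under 0.05 (Lrp1, Rac2, Ncf4, S100a16 and Trem2, 5 of 54 genes or 9.26%, beside 14.2% of all genes) and open points did not. None passed after adjustment over all genes, and the outermost points, Hp and Mmp3, both had differences of 1.38.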

How the data were processed

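The arrays measured RNA that had been isolated with Trizol, per the labels' protocols. The authors deposited RMA values on the log2 scale, per the submitters' processing notes, with no version stated. RMA makes array distributions alike, which hides any change common to most genes. Values were used as deposited.

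Of 45101 probe sets, 64 were controls and left out, 34945 had exactly 1 gene symbol, 932 several and 9160 none here. Genes were named from the platform annotation, which names no genome build; the 9 symbols matched RefSeq by Entrez identifier. The brightest probe set represented a gene, and genes under the 40th percentile of means were left out. Differences are E2f3-deleted minus control by a two-sided moderated test over all 8 arrays without covariates (limma 3.58.1, functions lmFit and eBayes, run under R 4.3.3), with standard errors from limma and p-values adjusted over the 10916 genes tested. On simulated arrays made from these 10916 genes 59.7% of genes changed by 0.5 log2 units were recovered, against 82.1% at 1 unit and 98.5% at 2 units. These rates are over all genes, whose median standard deviation within groups was 0.126. They do not give the recovery for genes as variable as Ltf (1.03), Mmp8 (0.90), S100a8 (0.60) or S100a9 (0.59).

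The genes, lists and tests were chosen with earlier results of these data known. All 10 genes are named, with up to 3 genes per related list by smallest p, the partners of their proteins and the 5 most alike genes. Alternatives were averaging probe sets, dropping the dim filter or raising it to the 60th percentile, median centring, quantile normalization, array weights, a trended robust prior, unmoderated variances, an adjusted p of 0.1, each array left out in turn and grouping by scan file letter. Likeness was also computed with Spearman's rho and for deviations from group means.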

Additional observations from a re-analysis of the deposited data

Results flagged for a closer look

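Within each group of 4 arrays, the gap between the highest or lowest array and the next one was divided by the range of the group, and the quotient was set against Dixon's 95% critical value for 4 samples. This was done for the 10 probe sets in both groups, 20 cases in all, of which chance alone would give about 1 in 20, and 3 exceeded it.

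Csf3r stood at 9.07 on E2f3-deleted array F, with the other E2f3-deleted arrays between 8.57 and 8.65 and a gap of 0.844 of the range. It is 1 of the 2 arrays that change group when arrays are grouped by scan file letter. Camp, dim throughout, stood at 5.52 on E2f3-deleted array H, with a gap of 0.923 of the range, and Ltf at 11.73 on control array D, with a gap of 0.901. On array D the median of the epithelial markers was also the highest of the controls, at 0.75 above their mean.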

How the results depend on the processing

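Under the 17 alternatives 0 of the tested genes of the set passed the threshold, and of 117 recomputed differences 109 kept their direction and 8 reversed. With arrays grouped by scan file letter, S100a8 was −0.49, S100a9 −0.15 and Ltf −0.32, and Lcn2 was 0.033, so that 1 gene was higher and 6 lower, where the titles gave 4 and 3, with 1 (Csf3r) at an unadjusted p under 0.05, where they gave 0, and 449 of all genes, where they gave 1547. With array weights Trem1 was 0.011. The 60th percentile, which leaves fewer genes to test, gave 944 genes at an unadjusted p under 0.05. With 1 array left out, S100a8 ranged from 0.032 (without control array B) to 0.53 (without E2f3-deleted array A), Lcn2 from 0.17 (without control array C) to 0.49 (without control array D), S100a9 from −0.061 to 0.47, Ltf from −0.22 (without E2f3-deleted array E) to 0.82 (without array H), Trem1 from −0.28 to 0.0017 and Mmp8 from −1.03 to −0.12. The genes of the set at an unadjusted p under 0.05 then ranged from 0 to 1 (Csf3r without E2f3-deleted array F, Lcn2 without control array D). Those whose groups did not overlap also ranged from 0 to 1. The share of all genes without overlap was not computed with 1 array left out, so that count has no background beside it. All genes past the adjusted threshold ranged from 0 to 60 (60 without E2f3-deleted array E and 14 without array H). All genes at an unadjusted p under 0.05 ranged from 1009 (without control array B) to 1854. The median r of the 21 pairs ranged from 0.0966 (without E2f3-deleted array F) to 0.434 (without array H). The cause was not tested. No paired analysis was possible because the groups share no replicate letters. Groups of 4 arrays limit what can be detected for genes as variable as Ltf and Mmp8.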

Other observations

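Of the 8 tested genes in the list of other secondary and tertiary granule genes, array H of the E2f3-deleted group was the lowest of the 8 arrays for 5 and the highest for 1. The 5 were Adam8, Itgam, Chil3, a chitinase-like protein gene at 5.97 on array H and 7.94 to 9.41 on the others, Lrg1, a secreted glycoprotein gene at 8.39 and 9.71 to 10.80, and Pglyrp1 at 5.74 and 6.22 to 7.76. Array H was also the lowest for 4 of 5 NADPH oxidase, 4 of 5 neutrophil surface and 4 of 7 other S100 genes. It was the highest for 0, 0 and 2 of these, and for 2 of 2 related metalloproteinase genes. The share of all tested genes with array H lowest or highest was not computed, so these counts have no background beside them. Hp, which encodes the haemoglobin-binding protein haptoglobin, had log2 signals of 7.73, 8.84, 12.59 and 10.70 in E2f3-deleted arrays A, E, F and H, against 8.12, 8.26, 9.23 and 8.73 in control arrays B, C, D and G. Slpi, an inhibitor of neutrophil proteases, was at 9.13, 10.16, 9.88 and 13.995 in the E2f3-deleted arrays, against 10.84, 9.58, 9.88 and 10.55 in the controls. Cxcl5, a chemokine for neutrophils that was dim by its mean, was at 2.81, 3.19, 3.16 and 8.004 in the E2f3-deleted arrays, against 3.32, 3.16, 3.22 and 3.22 in the controls. Slpi, Cxcl5, Chil3 and Lrg1 were chosen after their values were seen. Slpi and Cxcl5 were highest on array H, on which Ltf, Mmp8 and Trem1 were lowest and Lcn2 highest of the 8 arrays, and Hp and Slpi did not differ between the groups beyond the spread between arrays (limma, adjusted p = 0.518 and 0.800), while Cxcl5 was not tested.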
